A study of Mus musculus with 2 samples.

Results

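Innate pattern recognition was described here through 9 genes of mouse wound monocytes and macrophages: the Toll-like receptors Tlr2 and Tlr4, the co-receptor Cd14, the adaptor Myd88, the C-type lectin receptors Clec4e, Clec4d, Clec4n and Clec7a, and the amplifying receptor Trem1. The genes were chosen by symbol in the deposited gene list of 31053 genes. Symbol rows were found for 8 of the 9, and Clec7a was not analysed here. The series title asks how heterogeneous wound monocytes and macrophages are in non-diabetic and diabetic mice. Cells from skin wounds, taken on day 6 post-injury, were run on the 10x Chromium platform, which counts 3' ends of transcripts as unique molecular identifiers (UMIs).

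The non-diabetic group was 1 library and the diabetic group was 1 library, each from cells of 2 mice pooled together. The labels speak of a strain for each group without naming it, and do not name the diabetic model, the age or the sex. Strain, diabetes and library therefore cannot be told apart in any comparison below, and no comparison has a replicate check. No test was made. Intervals are at the 95% level and hold only the error of counting UMIs or cells, so variation between cells and animals is outside them. The cells with 500 genes or more and a mitochondrial share below 10% numbered 1123 in the non-diabetic library (15429273 UMIs, median 14079 per cell) and 1755 in the diabetic library (30435047 UMIs, median 16314). The libraries shared 6 barcodes, of which 1 passed the filter in both. Neutrophil markers summed to 239 CPM (UMIs of a gene for every 1000000 UMIs summed) in the non-diabetic and 4589 CPM in the diabetic library, with Ly6g and Ngp at 0 in the former. Of these neutrophil sums, S100a8 was 164 and 3917 CPM and S100a9 27.8 and 410 CPM. Macrophage markers summed to 5079 and 9540 CPM, and classical monocyte markers to 7909 and 4757 CPM. Those of T cells summed to 0.518 and 0.591 CPM.

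As background, pattern recognition receptors bind conserved parts of microbes and molecules released by damaged cells. Toll-like receptors signal through the adaptor MyD88 to NF-kB, and CD14 hands lipopolysaccharide to TLR4 with its partner MD-2, while TLR2 pairs with TLR1 or TLR6 to sense lipoproteins. The lectin receptors Mincle (Clec4e), MCL (Clec4d) and Dectin-2 (Clec4n) sense glycolipids or mannans and signal through the Fc receptor gamma chain and the kinase Syk, and TREM-1 signals through DAP12 (Tyrobp) and amplifies Toll-like receptor responses.

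The lectin genes lie side by side in the genome. On build GRCm38 (mm10), with GENCODE M21 annotation, Clec4n lies at chr6:123229843-123247021 on the plus strand, Clec4d at chr6:123262111-123275265 on the plus strand and Clec4e at chr6:123281789-123289870 on the minus strand. No other annotated gene lies in the 60028 bases they span, and 6523 bases separate the 3' ends of Clec4d and Clec4e. Tlr2 lies at chr3:83836272-83841767 (minus strand), Tlr4 at chr4:66827584-66930284 (plus strand), Myd88 at chr9:119335934-119341411 (minus strand) and Trem1 at chr17:48232768-48246924 (plus strand). Myd88 overlaps Slc22a14 on its own strand, so part of its counts is uncertain. It also overlaps Acaa1a on the other strand, and shares 224 identical bases with an Acaa1a transcript. Trem1 overlaps the antisense gene model AC241601.2. No transcript of another gene matched the other 7 of these 8 genes at 95% identity over 200 bases.

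RefSeq promoters (GRCm38.p6, 250 bases before to 50 after the start) were used for 5 of the genes: Tlr2, Myd88, Clec4e, Clec4d and Trem1. The ETS/PU.1 core GAGGAA, searched on both strands, was found in 3 of them (Clec4e, Clec4d and Trem1) and in 28.3% of 32851 promoters of the same length. The NF-kB core GGANNTTCC was found in that of Myd88, after the start, and in 4.26% of all promoters. No match to the AP-1 letters TGANTCA (7.81% of all promoters) or the C/EBP letters TTGCNNCAA (2.08%) was present in these 5 windows. A match is a description and not a binding site. The 250 bases before the start are shown for the 3 genes with a GAGGAA match, with each match in capitals (GAGGAA, or TTCCTC where it lies on the other strand).
Clec4e, chr6:123289872-123290121, minus strand: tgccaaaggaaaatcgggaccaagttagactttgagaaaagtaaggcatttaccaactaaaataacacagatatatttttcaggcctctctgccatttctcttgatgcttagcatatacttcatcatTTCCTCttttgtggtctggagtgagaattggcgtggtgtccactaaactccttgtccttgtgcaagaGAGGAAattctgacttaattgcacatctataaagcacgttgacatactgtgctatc
Clec4d, chr6:123261857-123262106, plus strand: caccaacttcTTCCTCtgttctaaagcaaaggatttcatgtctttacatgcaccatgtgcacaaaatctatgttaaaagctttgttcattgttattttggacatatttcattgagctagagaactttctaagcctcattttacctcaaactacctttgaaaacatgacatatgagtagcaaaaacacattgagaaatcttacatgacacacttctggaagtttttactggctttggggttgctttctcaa
Trem1, chr17:48232489-48232738, plus strand: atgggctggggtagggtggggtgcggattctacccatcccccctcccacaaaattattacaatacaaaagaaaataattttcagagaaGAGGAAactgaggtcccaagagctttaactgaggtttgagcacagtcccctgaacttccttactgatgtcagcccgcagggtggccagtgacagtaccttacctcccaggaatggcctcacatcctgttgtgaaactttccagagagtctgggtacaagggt
The Clec4e stretch holds 2 matches, the Trem1 stretch 1 and the Clec4d stretch 1, with 2 further Clec4d matches after the start.

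The first comparison was between the libraries as a whole. Tlr2, the receptor for bacterial lipoproteins, was at 446 CPM in the non-diabetic and 282 CPM in the diabetic library, a log2 ratio of -0.66 (interval -0.71 to -0.62) or 1.58-fold lower. Trem1, the amplifying receptor of myeloid cells, was at 112 and 71.0 CPM, a log2 ratio of -0.66 (-0.75 to -0.56) and also 1.58-fold lower. These were the only 2 of the 8 genes at least 1.5-fold lower, and 0 were as much higher. Over 12337 measured genes (at least 20 UMIs over both libraries), 12.9% were at least 1.5-fold lower and 18.7% at least 1.5-fold higher. The median log2 ratio of the 8 genes was -0.32, beside 0.12 over all measured genes.

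The genes of lipopolysaccharide sensing and the shared adaptor differed less. Cd14, which loads lipopolysaccharide onto TLR4, was at 2122 CPM in the non-diabetic and 1535 CPM in the diabetic library (log2 ratio -0.47, interval -0.49 to -0.45). Tlr4 itself was at 39.1 and 32.6 CPM (log2 ratio -0.26, -0.41 to -0.11), from 603 and 993 UMIs. Myd88, the shared adaptor, was at 80.6 and 72.2 CPM (log2 ratio -0.16, -0.26 to -0.06). All 3 were lower in the diabetic library, by less than 1.5-fold.

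The lectin receptors went in different directions. Clec4e, the damage and mycobacterial glycolipid receptor, was at 1007 CPM in the non-diabetic and 776 CPM in the diabetic library (log2 ratio -0.38, interval -0.41 to -0.35). Clec4d, its binding partner, was level at 616 and 621 CPM (log2 ratio 0.01, -0.02 to 0.05). Clec4n, the mannan receptor, was at 217 and 256 CPM (log2 ratio 0.23, 0.18 to 0.29). The 3 neighbouring genes thus had a lower, a level and a higher library sum in the diabetic library. With DESeq2 or TMM factors, which take the median of all genes from 0.12 to about 0, Clec4d turned to -0.11 or -0.10, and the other 7 genes kept their direction.

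**Figure D1:**
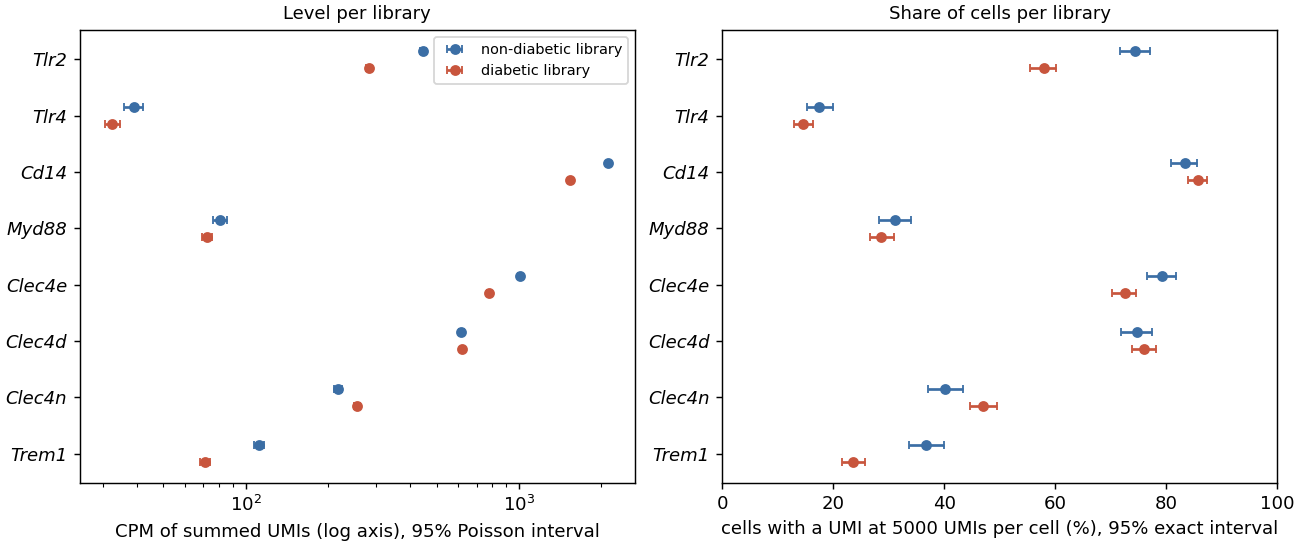
Level of 8 receptor genes in the 2 libraries as CPM of summed UMIs (left, log axis) and as percent of cells with a UMI after thinning to 5000 UMIs (right). Points are library values and bars 95% counting intervals; Tlr2 and Trem1 sit furthest apart, at 74.4% against 57.9% and 36.8% against 23.5% of cells.

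Shares of cells were compared at 5000 UMIs per cell, which kept 982 non-diabetic and 1661 diabetic cells and left out 141 and 94. A Tlr2 UMI was found in 74.4% of non-diabetic cells (interval 71.6% to 77.1%) and 57.9% of diabetic cells (55.4% to 60.2%), and without thinning in 85.6% and 78.5%. A Trem1 UMI was found in 36.8% (33.7% to 39.9%) and 23.5% (21.5% to 25.7%), and without thinning in 52.9% and 44.8%. A Cd14 UMI was found in 83.3% (80.8% to 85.6%) and 85.7% (83.9% to 87.3%). At 2000 UMIs per cell the Cd14 shares were 75.6% and 73.6%, so their order depended on the depth chosen. For Tlr4, at 17.5% and 14.6%, the intervals overlapped (15.2% to 20% and 12.9% to 16.4%). Without thinning the Tlr4 shares were in the other order, at 32.3% and 35.4%, and the Cd14 shares were 89.5% and 94%.

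Clec4e was detected in 79.2% of thinned cells from the non-diabetic library and 72.5% from the diabetic one. Clec4d was detected in 74.7% (71.9% to 77.4%) and 76.0% (73.9% to 78.1%), with overlapping intervals, and Clec4n in 40.1% and 47.0%. A Myd88 UMI was in 31.1% (28.2% to 34.1%) and 28.7% (26.6% to 31%), with overlapping intervals. Without thinning the Myd88 shares were in the other order, at 54.9% and 62.8%. No cluster of a cell type known to lack these genes was large enough to give a background share. Clec4d was lowest in dendritic cell-like cells, with a UMI in 12.4% (non-diabetic) and 14% (diabetic) of thinned cells. Without thinning, at median depths of 19353 and 18898 UMIs, these shares were 26.7% and 20.4%. Barcodes with under 500 genes, left out of all sums, had Clec4e at 357 CPM in the non-diabetic and 194 CPM in the diabetic library and Cd14 at 239 and 122 CPM. The Clec4e levels and the non-diabetic Cd14 level are close to or above the lowest cluster levels given below. The diabetic Cd14 level (81.9 to 176) is below the lowest, 259 CPM in diabetic Cd209a-led cells (228 to 293). The part of free RNA in the cluster levels was not tested.

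Cells often carried several of these transcripts at once. The median was 5 of the 8 genes per thinned non-diabetic cell and 4 per diabetic cell. At least 4 were detected in 74.2% of non-diabetic and 68.0% of diabetic cells, and at least 6 in 25.3% and 17.4%. No receptor gene was detected in 19 of 982 and 37 of 1661 cells. Clec4d and Clec4e were found together in 67.1% of non-diabetic cells, where independent detection would give 59.2%, and in 61.3% of diabetic cells, where it would give 55.1%. Within diabetic Ccl8-led cells the pair was found in 26.7%, beside 21.2% for independent detection, and within diabetic Lyz1-led cells in 63.8%, beside 61.1%. In Inhba-led and Stfa3-led cells Clec4d was detected in 99.3% and 99.7%, so no excess could show there.

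**Figure D2:**
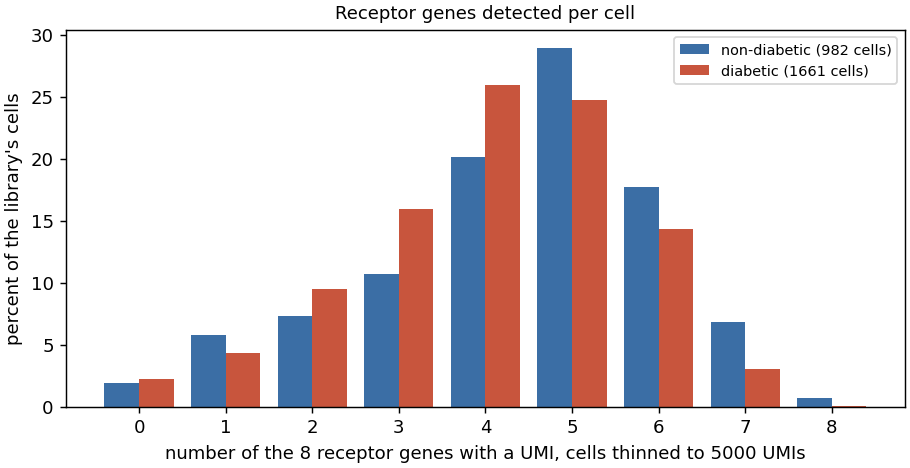
Percent of each library's cells (y axis) by the number of the 8 receptor genes with a UMI (x axis), after thinning to 5000 UMIs, for 982 non-diabetic and 1661 diabetic cells. The non-diabetic bars peak at 5 genes (28.9% of cells) and the diabetic bars at 4 (25.9%).

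The next comparison was between cell states. Joint clustering gave 14 clusters, each called here by its leading gene, and 1 of them is not reported here. By their markers, the cluster led by Chil3 was classical monocyte-like, with Oasl1, Mx1 and Isg15 also among its leading genes. Those led by Ccl8 and Cd163 were macrophage-like, that led by Cd209a conventional dendritic cell-like and that led by Retnlg neutrophil-like. The others were unnamed, among them the Inhba-led (with Il23a and Ccl2), G0s2-led (with Il6 and Il1b), Stfa3-led (with Lcn2 and S100a8) and Lyz1-led (with H2-Aa and Cd74) clusters. Collagen genes were among the leading genes of the Sparc-led cluster. Its fibroblast markers, collagens among them, summed to 6040 CPM in non-diabetic and 13.6 CPM in diabetic cells. The Gm42418-led cluster was of low depth. Most clusters came from 1 library: the Inhba-led one held 335 non-diabetic and 5 diabetic cells, the Stfa3-led one 1 and 307. In such clusters the state and the library cannot be told apart. The clustering used 4 of the 8 genes among its 2000 variable genes, so levels between clusters are a description.

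Cd14, Tlr2, Clec4e, Clec4d and Trem1 were high in the Inhba-led, Chil3-led and G0s2-led clusters and low in the dendritic cell-like and Ccl8-led macrophage-like ones. Cd14 ranged over the 16 combinations of cluster and library with at least 30 cells from 4041 CPM in non-diabetic Inhba-led cells to 259 CPM in diabetic Cd209a-led cells, 15.6-fold. Next highest were diabetic G0s2-led cells at 3307 CPM and non-diabetic Chil3-led cells at 2795 CPM. Diabetic Ccl8-led cells, a large diabetic group, were at 361 CPM.

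Clec4e and Clec4d were also highest in Inhba-led cells. Clec4e was at 1604 CPM in Inhba-led, 1467 in G0s2-led, 1354 in Chil3-led and 1327 in Stfa3-led cells, and at 168 CPM in diabetic Ccl8-led cells. Clec4d was at 1264 CPM in Inhba-led, 1081 in Stfa3-led and 1026 in G0s2-led cells, and at 32.1 and 34.0 CPM in the non-diabetic and diabetic Cd209a-led cells, a range of 39.4-fold. Among macrophage-like clusters the genes parted: Cd163-led cells had 795 CPM of Clec4d and 378 CPM of Clec4e, beside 231 and 168 CPM in Ccl8-led cells.

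Tlr2 was highest in non-diabetic Chil3-led cells at 657 CPM, followed by diabetic G0s2-led cells at 604 CPM and non-diabetic Inhba-led cells at 512 CPM. It was lowest in diabetic Ccl8-led cells at 101 CPM. The Stfa3-led cells, high in Clec4d and Clec4e, had only 179 CPM of Tlr2. Trem1 ran from 224 CPM in Inhba-led cells, through 146 in Chil3-led, 144 in G0s2-led and 103 in Stfa3-led cells, to 14.8 CPM in Ccl8-led cells.

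Tlr4, Myd88 and Clec4n had orders of their own. Tlr4 was at 80.9 CPM in Inhba-led cells and 67.7 CPM in Cd163-led cells, and at 17.7 CPM in Stfa3-led cells. It was lowest in Cd209a-led cells, at 9.65 CPM (25 UMIs) in the non-diabetic and 4.12 CPM (4 UMIs) in the diabetic library. Among the reported clusters Myd88 was highest in Cd209a-led cells, at 120 CPM in the non-diabetic and 101 CPM in the diabetic library, and lowest in the low-depth Gm42418-led cells at 23.8 CPM. Clec4n was highest in diabetic Cd209a-led cells at 451 CPM and, among the reported clusters, lowest in non-diabetic Chil3-led cells at 146 CPM.

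Over all 16 combinations, many neighbours in these orders had overlapping Poisson intervals: 11 of 15 for Tlr2, 14 for Tlr4, 4 for Cd14, 15 for Myd88, 5 for Clec4e, 8 for Clec4d, 12 for Clec4n and 13 for Trem1. At a clustering resolution of 0.5 the highest cluster was another one for Tlr2 (led by Cxcl14), Tlr4 (Cd163), Myd88 (Cd209a), Clec4d (Stfa3) and Clec4n (Cxcl14). It stayed the Inhba-led one for Cd14, Clec4e and Trem1. Clustered without the receptor genes, the highest Clec4n level was 802 CPM, in a diabetic cluster led by Ccl24.

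**Figure D3:**
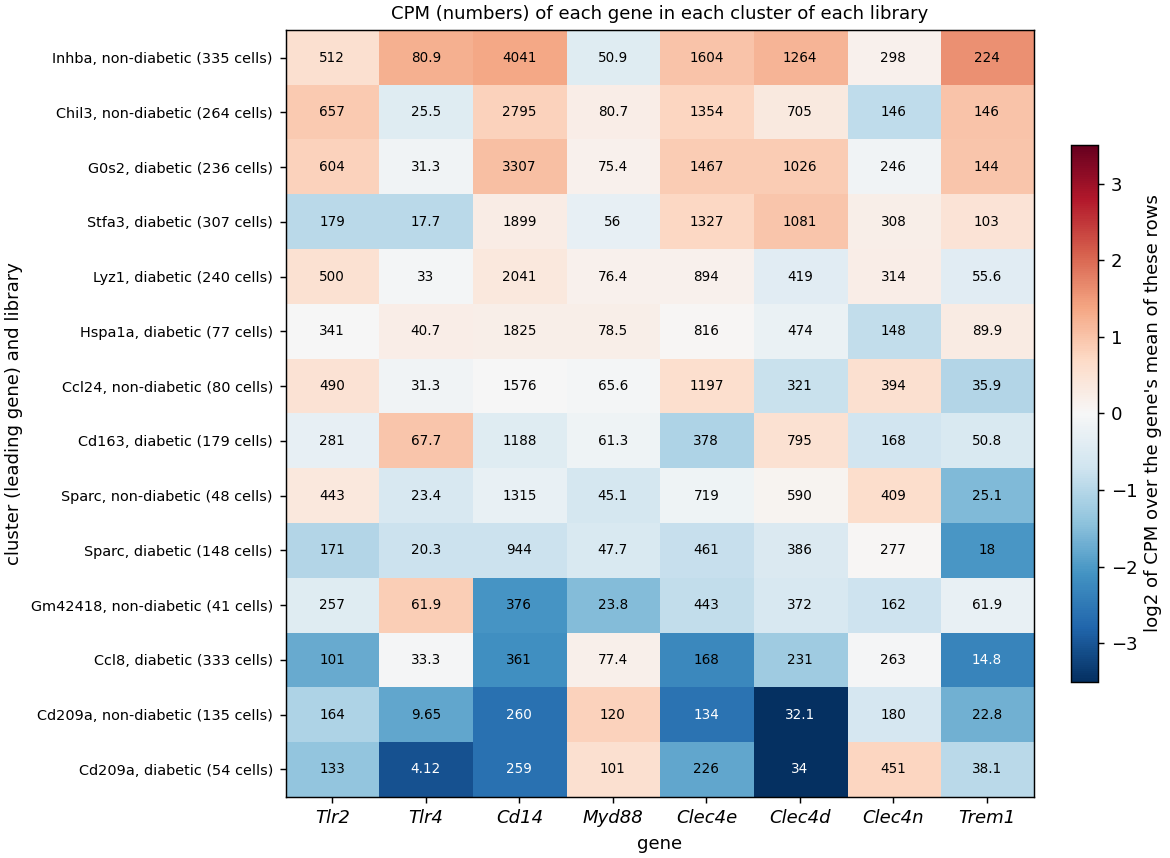
CPM (numbers in the cells) of 8 receptor genes (columns) in 14 combinations of cluster and library with at least 30 cells (rows). Colour is the log2 of CPM over the gene's mean of the 14: Cd14, Clec4e, Clec4d and Trem1 are highest in the Inhba-led row, and the 2 Cd209a-led rows are lowest for Tlr4, Cd14 and Clec4d.

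The 13 neutrophil-like cells, all diabetic and too few for the comparison above, had the highest levels of several genes. Trem1 was at 1976 CPM in them, Clec4e at 6005, Clec4d at 3286 and Cd14 at 7648 CPM. Tlr2 was at 137 CPM, from 7 UMIs (55.1 to 282). The median depth of these cells was 4417 UMIs. They held 4.67% of the diabetic Trem1 UMIs and 1.30% of those of Clec4e. The Stfa3-led cells had a summed neutrophil marker level of 18221 CPM with Ly6g at 0. That sum was 2464 CPM in G0s2-led and 515 CPM in Inhba-led cells. In Stfa3-led cells 3 of the 10 neutrophil markers were at least 2-fold above the other clusters and in at least 10% of cells. The part of neutrophil RNA in the receptor levels was not tested.

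A few clusters carried most of each library's receptor UMIs, and they were different clusters in the 2 libraries. Inhba-led cells were 29.8% of the non-diabetic cells and held 53.2% of the library's Tlr4 UMIs, 52.8% of its Clec4d, 51.5% of its Trem1 and 49.0% of its Cd14 UMIs. Chil3-led cells held a further 36.3% of the Tlr2 and 33.1% of the Clec4e UMIs. In the diabetic library Stfa3-led cells, 17.5% of cells, held 33.6% of the Clec4d and 33.0% of the Clec4e UMIs, and G0s2-led cells 27.0% of the Cd14 and 26.8% of the Tlr2 UMIs. Cd163-led cells held 25.8% of the diabetic Tlr4 UMIs.

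The library ratios depended on the Inhba-led cells. That cluster held 335 non-diabetic and 5 diabetic cells. Its non-diabetic cells were the highest of the 16 combinations for Tlr4, Cd14, Clec4e, Clec4d and Trem1. Leaving it out was therefore bound to raise the ratios of these genes. Without that cluster, Tlr4 turned from -0.26 to 0.41 and Cd14 from -0.47 to 0.07 on the log2 scale. Trem1 went from -0.66 to -0.05 and Clec4e from -0.38 to -0.05, and Clec4d rose past 1.5-fold, to 0.66. Only Tlr2 stayed at least 1.5-fold lower, at -0.59. Without the Stfa3-led cluster it was Tlr2 that came inside 1.5-fold, at -0.54, and Clec4e that passed it, at -0.64, while Trem1 was at -0.82 and Clec4d at -0.27.

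**Figure D4:**
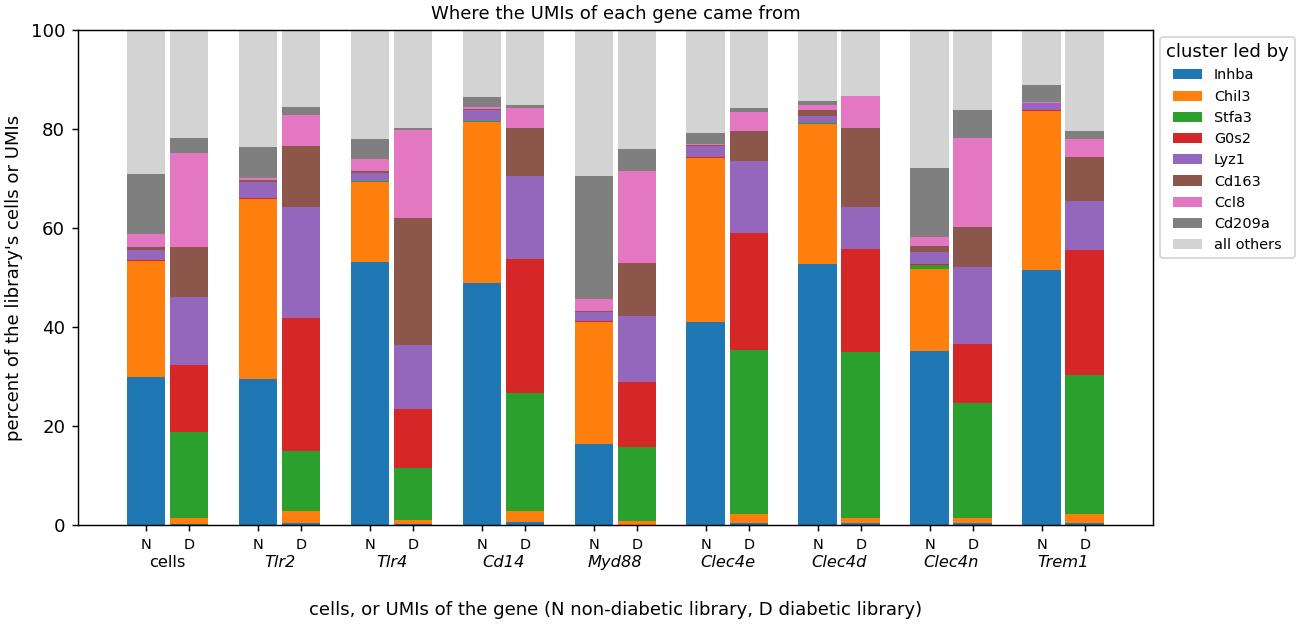
Percent of each library's cells, and of its UMIs of each receptor gene, that came from each cluster (colours; y axis from 0 to 100%), for the non-diabetic (N) and diabetic (D) library. Inhba-led cells give 53.2% of the non-diabetic Tlr4 UMIs, and Stfa3-led cells 33.6% of the diabetic Clec4d UMIs.

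The last comparison was within clusters that both libraries held, among them 2 described clusters with at least 30 cells in both libraries. In Cd209a-led dendritic cell-like cells (135 and 54), Clec4n was at 180 CPM in the non-diabetic and 451 CPM in the diabetic library (log2 ratio 1.32, 1.13 to 1.52), 2.50-fold higher. Clec4e was at 134 and 226 CPM (0.76, 0.51 to 1), and Trem1 at 22.8 and 38.1 CPM from 59 and 37 UMIs (0.75, 0.11 to 1.36), opposite to its library sum. Tlr4 had 25 and 4 UMIs, and its interval (-3.21 to 0.30) held 0. In all, 3 of the 8 genes were at least 1.5-fold higher and 1 as much lower, where 9.06% and 17.9% of the genes measured there were. Cd14 was level, at 260 and 259 CPM.

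The Sparc-led cells (48 and 148) had Tlr2 at 443 and 171 CPM (log2 ratio -1.37), Clec4e at 719 and 461 CPM (-0.64) and Clec4d at 590 and 386 CPM (-0.61). These were 3 of the 8 genes at least 1.5-fold lower and 0 higher, where 17.9% and 20.3% of the genes measured there were. Marker sums of this cluster differed between the libraries, with fibroblast markers at 6040 CPM in the non-diabetic and 13.6 CPM in the diabetic cells. Endothelial markers were at 95.3 and 279 CPM, and cycling markers at 102 and 366 CPM. Cell make-up and library cannot be told apart in its ratios. This mixed cluster was not found again without the receptor genes: its nearest match held 8 and 42 cells, where Tlr2 was at 1.73 and Clec4e at 0.64.

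With the minimum lowered to 20 cells, a choice made after seeing the data, 3 more clusters gave a ratio. In Chil3-led cells (264 and 20), Tlr2 was at 657 and 710 CPM, Clec4d at 705 and 651, Trem1 at 146 and 128 and Cd14 at 2795 and 3522 CPM. Clec4n, at 146 and 283 CPM (log2 ratio 0.96, 0.60 to 1.29), was the only gene past 1.5-fold there. In Lyz1-led cells (22 and 240), Cd14 was at 2135 and 2041 CPM, Clec4e at 981 and 894 and Tlr2 at 633 and 500 CPM. In Ccl8-led macrophage-like cells (29 and 333), Tlr2 was at 94.2 and 101 CPM, and Cd14 at 323 and 361 CPM. Clec4e was past 1.5-fold higher there, at 91.4 and 168 CPM (0.86, 0.37 to 1.44), as was Clec4n, at 166 and 263 CPM (0.66, 0.29 to 1.07). Trem1 had 1 and 78 UMIs there (-0.15 to 7.69).

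Across the 6 clusters with 20 or more cells in both libraries, the unreported one included, Tlr2 had an interval below 0 in 4 and above 0 in 0, with log2 ratios from -1.37 to 0.12. Clec4n had an interval above 0 in 4 and below 0 in 1 (-0.57 to 1.32), and Clec4e above 0 in 3 and below 0 in 2 (-0.64 to 0.86). Cd14 ran from -0.48 to 0.33 and Clec4d from -0.61 to 0.18. The lowest values of Tlr2, Clec4n, Clec4e, Cd14 and Clec4d were those of the Sparc-led cells, whose make-up differed between the libraries. Trem1 had an interval above 0 in 2 and below 0 in 0. The 6 clusters were then weighted equally by taking the ratio of their mean CPM in each library, so clusters of high CPM counted more in it. The log2 ratios were -0.35 for Tlr2, 0.13 for Trem1, 0.06 for Cd14, 0.00 for Clec4e, -0.16 for Clec4d and 0.44 for Clec4n. At this weighting Trem1, Cd14 and Clec4e were thus not lower in the diabetic library, and 0 of the 8 genes were past 1.5-fold.

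**Figure D5:**
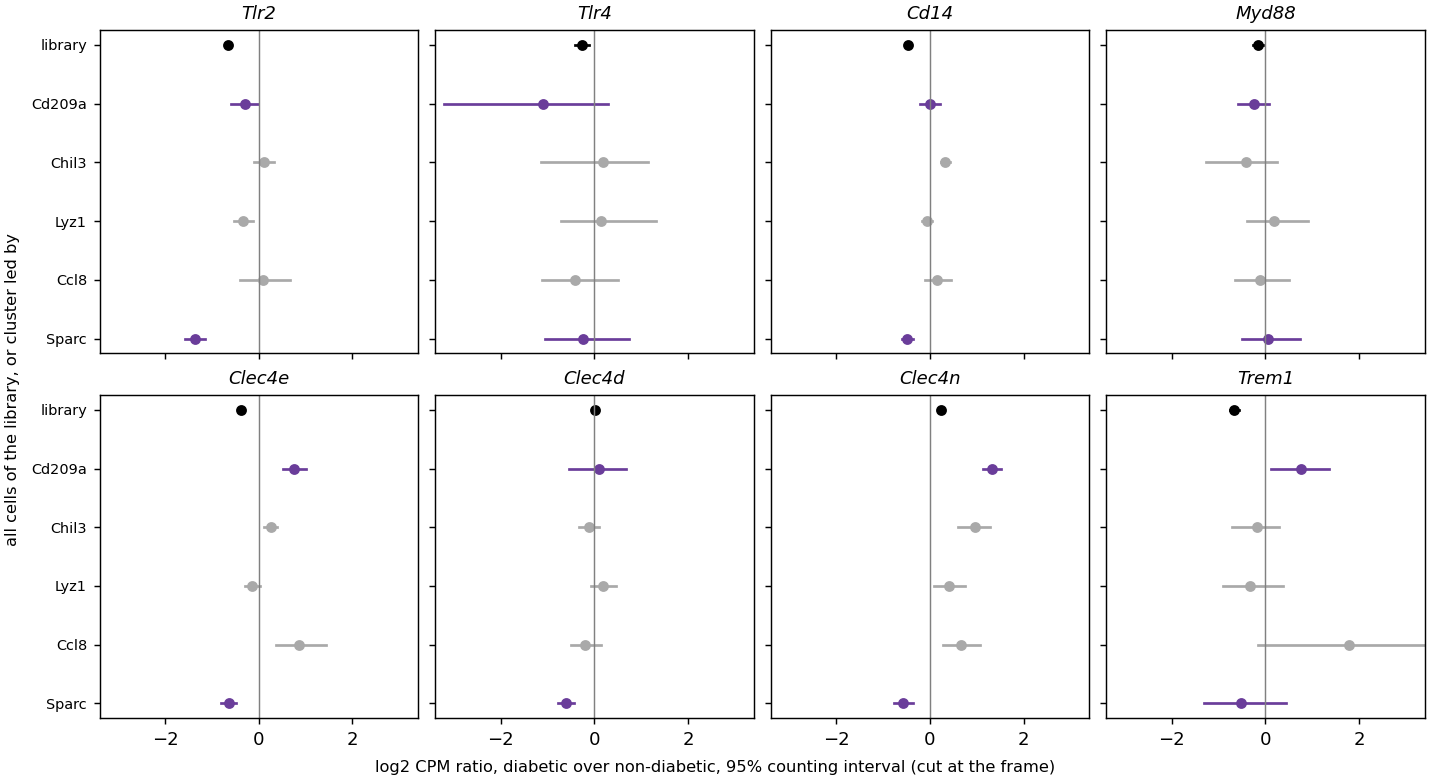
Log2 CPM ratio, diabetic over non-diabetic (x axis, point and 95% counting interval), for each of 8 receptor genes in all cells (black), in 2 clusters with 30 or more cells in both libraries (purple) and in 3 with 20 to 29 cells of 1 library (grey). Trem1 is at -0.66 in all cells and 0.75 in the Cd209a-led cluster, where Clec4n reaches 1.32.

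Levels of the receptor genes across the 16 combinations of cluster and library were most alike for Cd14 and Clec4e (Pearson r = 0.93 of log2(CPM + 1)), followed by Cd14 and Clec4d (0.84), Tlr2 and Cd14 (0.80), Tlr2 and Clec4e (0.80) and Clec4e and Clec4d (0.80). Clec4n was at 0.05 with its neighbour Clec4d and 0.14 with Clec4e. Myd88 was at -0.50 with Clec4d. The points share libraries and depth, and these are descriptions without a p. Among 7508 genes, the pattern most like that of Cd14 was Clec4e, then Mcl1 (0.93) and Ets2 (0.92). The closest to Clec4e were Noct (0.93), Cd14 and the chemokine gene Cxcl2 (0.92), and the closest to Clec4d were Arg2 (0.96), Piwil2 and Ttc39b (0.95 each). Klhl2, Gadd45a and Gpat3 were closest to Trem1 (0.93, 0.91, 0.89), and Sde2, Litaf and Ccrl2 to Tlr2 (0.93, 0.91, 0.90). Arid3a, Mef2a and Zfhx3 were closest to Tlr4 (0.91, 0.90, 0.88), Cdkn2d, Arhgdib and Rnase6 to Myd88 (0.96, 0.95, 0.95), and Chd4, Mkl2 and Pea15a to Clec4n (0.87, 0.87, 0.84).

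The other genes of these pathways were counted in 10 lists. Beside them, 18.7% of all measured genes were at least 1.5-fold higher and 12.9% lower (median log2 ratio 0.12). Of 9 measured Toll-like receptors 1 was at least 1.5-fold higher in the diabetic library and 1 lower (median log2 ratio -0.07). Tlr1, which pairs with TLR2, was at 14.6 CPM in the non-diabetic and 24.0 CPM in the diabetic library (0.72), opposite to Tlr2, and Tlr13, a sensor of bacterial ribosomal RNA, was at 32.9 and 48.1 CPM (0.55). Of 6 genes of lipopolysaccharide delivery and co-receptors 1 was higher and 2 lower. The scavenger receptor Cd36 was at 125 and 232 CPM, Ly86, which encodes MD-1, at 219 and 140 CPM, and Ly96, which encodes MD-2, at 47.4 and 62.9 CPM.

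Of 14 adaptors and kinases of receptor signalling, 1 was higher and 3 lower, beside 18.7% and 12.9% of all measured genes. Irak2, a kinase of the Myd88 complex, was at 96.2 CPM in the non-diabetic and 36.2 CPM in the diabetic library (log2 ratio -1.41), while Irak1 was at 51.7 and 71.9 CPM (0.48). Of 11 negative regulators 1 was higher and 5 lower (median -0.41). Irak3, which encodes IRAK-M, was at 45.5 and 110 CPM (1.28), and the NF-kB inhibitor gene Nfkbia at 3648 and 1527 CPM (-1.26).

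Lectin and TREM signalling had 0 of 10 genes higher and 1 lower (median -0.38), beside 18.7% and 12.9% of all measured genes. The shared chains were close to level, with Fcer1g at 2088 and 2374 CPM (log2 ratio 0.19) and Tyrobp at 2076 and 2158 CPM (0.06), and Malt1 was at 393 and 218 CPM (-0.85). Of 10 other lectin receptors 4 were higher and 4 lower, among them the mannose receptor Mrc1 (165 and 340 CPM) and Cd209a (130 and 22.9 CPM), which leads the dendritic cell-like cluster. Of 4 other TREM family genes 0 were higher and 1 lower, and Trem2 was at 156 and 209 CPM (0.43).

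Cytosolic sensors had 0 of 12 higher and 5 lower (median log2 ratio -0.50), beside 18.7% and 12.9% of all measured genes (median 0.12). The RNA sensor Ifih1 was at 88.5 CPM in the non-diabetic and 25.9 CPM in the diabetic library (-1.77), and Ddx58 at 53.7 and 19.2 CPM (-1.49). Of 9 endogenous ligands 3 were higher and 0 lower. The TLR4 ligand gene S100a8 was at 164 and 3917 CPM (4.57), S100a9 at 27.8 and 410 CPM (3.88) and the acute phase gene Saa3 at 180 and 16329 CPM (6.50). S100a8 and S100a9 are also neutrophil markers, of which 7 of 7 measured were at least 1.5-fold higher in the diabetic library.

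Among 19 measured targets induced by these receptors 2 were higher and 7 lower (median log2 ratio -0.23). Of all measured genes 18.7% were higher and 12.9% lower (median 0.12). Tnf was at 671 CPM in the non-diabetic and 264 CPM in the diabetic library (-1.34), Cxcl2 at 19458 and 11500 CPM (-0.76) and the activation marker Cd83 at 342 and 105 CPM (-1.70), whereas Sod2 was at 351 and 942 CPM (1.43). Il1b was at 5455 and 4663 CPM (-0.23). Of 12 immediate early and heat shock genes, a list added after the data were seen, 1 was higher and 5 lower, and their sum was 11429 CPM in the non-diabetic and 8990 CPM in the diabetic library. Their part in the levels of the induced genes was not tested.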

How the data were processed

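Values in the deposited matrices are unnormalized UMI counts from Cell Ranger version 3.0.2, per the file headers. Reads were placed on mm10, per the submitters' processing notes; which annotation was used is not given in the sources used here. Receptor genes, lists and tests were chosen with earlier results of these data known. Named genes were all receptor genes, up to 4 genes per list with the largest log2 ratio and up to 2 with the highest level, at 20 CPM or more, and 3 genes of most similar pattern per receptor gene; the text names part of the list genes. 1 list was added later.

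CPM were summed UMIs over the library or cluster sum. Log2 ratios used sums with 0.5 added. Intervals are exact Poisson, conditional exact binomial and Clopper-Pearson. Scrublet in scanpy version 1.11.5 marked 2 and 4 cells (0.178% and 0.228%), too few to rely on, so doublets may remain; these cells entered the library sums and no cluster. Counts scaled per cell and log-transformed, 2000 variable genes, 30 components and 15 neighbours were clustered with leidenalg version 0.10.2 at resolution 1, without scaling of genes or batch correction. 1 cluster is not reported here, though its cells entered the sums, weightings and counts over clusters. A cluster was named with at least 3 markers and 50% of a marker set at 2-fold or more in at least 10% of its cells, a scoring rule set after data of this series had been seen. Copies were sought with BLAST version 2.17.0. Alternative scalings used DESeq2 version 1.42.0 and edgeR version 4.0.16 in R 4.3.3. With sums simulated for the library comparison (diabetic over non-diabetic), the set ratio lay inside the interval for 95.5% of 12015 genes left unchanged and for 100%, 97.0% and 96.8% of 67, 66 and 62 genes changed 1.5-, 2- and 4-fold, which checks the calculation only.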

Additional observations from a re-analysis of the deposited data

Results flagged for a closer look

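In clusters with at least 30 cells in both libraries, for 2 receptor genes the counting intervals of the diabetic over non-diabetic log2 ratio lay on opposite sides of 0 in different cell states. The Clec4e ratio was 0.76 in the Cd209a-led dendritic cell-like cells and -0.64 in the Sparc-led cells. The Clec4n ratio was 1.32 in the Cd209a-led and -0.57 in the Sparc-led cells. With 1 library per group these differences between states were not tested. Fibroblast markers summed to 6040 CPM in the non-diabetic and 13.6 CPM in the diabetic Sparc-led cells, so these differed in make-up between the libraries. When the cells were clustered without the receptor genes, the Sparc-led cluster was not found again. Its nearest match, of 8 and 42 cells, had 0.64 for Clec4e and 0.97 for Clec4n. The Cd209a-led values stayed within their intervals. With 20 or more cells in both libraries, Cd14 also had intervals on opposite sides of 0, at -0.48 in the Sparc-led and 0.33 in the Chil3-led cells (264 and 20).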

How the results depend on the processing

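Each gene's library ratio was recomputed under 12 alternatives of cell filter, cluster choice, scaling and depth, 1 of them (20 cells) chosen after seeing the data. Tlr2 was below 0 in 12 of 12 (-0.88 to -0.35) and Clec4n above 0 in 12 of 12 (0.11 to 0.44). Trem1 was below 0 in 10 of 12, and turned to 0.59 and 0.13 with equal weight to clusters with at least 30 or 20 cells of each library. Clec4d was below 0 in 8 and above 0 in 4 (-0.38 to 0.66). The 2 genes at least 1.5-fold lower became 1 with stricter cell filters (1000 genes, 5% mitochondrial), with the mean of each cell's own CPM, without the Inhba-led cluster and with equal weight at 30 cells, and 0 with equal weight at 20 cells and with a fold of 2. It became 3 in the monocyte/macrophage set and with DESeq2 factors, where Cd14 joined at -0.66 and -0.59, and stayed 2 without the Stfa3-led cluster, with Clec4e (-0.64) in place of Tlr2 (-0.54). The count of 0 higher became 1 without the Inhba-led cluster and with equal weight at 30 cells. Clustered without the receptor genes, the Sparc-led cluster was not found again. Its nearest match (8 and 42 cells) gave 1.73 for Tlr2 and 0.64 for Clec4e. No paired analysis was possible because each group had 1 library. Depth limits ratios from few UMIs, such as Tlr4 with 4 in diabetic Cd209a-led cells and Trem1 with 1 in non-diabetic Ccl8-led cells.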
